A study of Mus musculus with 2 samples.

Results

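The genes described here are 37 members of glucose metabolism and of the response to low oxygen, chosen by name from the 21937 genes of the deposited table. Of these, 24 encode glucose transporters, glycolytic enzymes, lactate dehydrogenases, the pyruvate dehydrogenase kinase Pdk1 and the enzymes that control fructose bisphosphate. They are called glycolytic here. The other 13 are hypoxia-inducible genes outside glycolysis. All 37 had reads, as did 18759 genes in all. Their messenger RNA was sequenced in wild-type mouse embryonic stem (ES) cells of the 129Sv-C57Bl/6 strain, grown without feeder cells. One group was exposed to 500 nM ICRF-193, a catalytic inhibitor of topoisomerase II, for 16 h. The control group received the solvent DMSO for the same 16 h. Each group held 3 libraries, and the study asked how the catalytic activity of topoisomerase II bears on transcription. Whether separate cultures gave the 3 libraries of a group is not stated in the labels, and p-values here speak to the spread among these libraries alone, which may be technical.

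Glycolysis converts glucose to pyruvate in the cytosol, and ES cells are known to rely on it heavily, releasing much of the carbon as lactate. In low oxygen the transcription factor HIF1, made of HIF1A and ARNT, raises transcription of most glycolytic genes together with genes for blood vessel growth, mitochondrial removal and collagen modification. When oxygen is present, prolyl hydroxylases of the EGLN family mark HIF1A for destruction. The glycolytic and the other hypoxia-inducible genes therefore share a known regulator but do different work in the cell.

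The deposited table holds 1 mean per group and gene, in normalised reads: each library's reads over its own size factor, averaged. Whole reads per library were worked back from the digits of those means for 34 of the 37 genes. In either group the letters A, B and C stand for the libraries from the largest size factor to the smallest, and carry no replicate number of the study. Ldha, Slc2a1 and Slc2a3 could not be worked back and have group means only. Recovered totals ran from 26734610 to 42710633 reads per library.

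Library A of each group stood apart. The summed level of 8 fibroblast markers was 17219 normalised reads in DMSO library A against 1743 and 1712 in B and C. In ICRF-193 it was 19658 in library A against 3047 and 2389. The collagen genes Col1a1, Col1a2 and Col3a1 made up most of the sum. Postn was also highest in A, with 227, 9.92 and 16.2 normalised reads in DMSO libraries A, B and C and 206, 24.9 and 12.3 in ICRF-193. Thy1 did not follow the sum, with 185, 281 and 311 in DMSO, nor did S100a4, with 26.3, 33.7 and 36.7. Both were lowest in A in ICRF-193 too. Dcn had 8.76, 12.9 and 15.1 in DMSO, lowest in A, but was highest in A in ICRF-193. Lum was at or near 0 in all 6 libraries. Marker sums of other lineages were also highest in library A. For primitive endoderm (6 genes) they were 4143, 902 and 1484 normalised reads in DMSO libraries A, B and C and 4182, 1548 and 1918 in ICRF-193. For trophectoderm (5 genes) they were 1214, 465 and 451 in DMSO and 2151, 1167 and 1119 in ICRF-193, with overlap through DMSO library A. For the 2-cell-like state (6 genes, 2 of them at 0) they were 455, 43.6 and 71.3 in DMSO and 660.5, 119 and 104 in ICRF-193. None of the genes of these 4 lists was called in the authors' deposited table. All 10 ES cell markers were present. Their sums were 167694, 192335 and 181046 normalised reads in DMSO libraries A, B and C and 111356, 124400 and 130615 in ICRF-193, lowest in library A of each group. Their log2 fold changes in the authors' deposited table ran from -0.99 (Zfp42) to -0.39 (Dppa5a). Zfp42 and Lin28a of these 10 passed an adjusted p of 0.05 as lower in the authors' deposited table, and the part of these marker shifts in the results below was not tested.

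After ICRF-193, 4 genes of the forward glycolytic pathway fell, and both genes for fructose bisphosphatase, the enzyme that opposes a glycolytic step, rose strongly. At an adjusted p under 0.05 in the authors' deposited table (DESeq test over 18759 genes), Fbp1 and Fbp2 rose. Hk2, Pfkp, Tpi1 and Eno1 of glycolysis, and Bnip3 and Vegfa of the hypoxia-inducible genes, fell. The 2 of 37 members called higher in the authors' deposited table are a share near the 5.97% of all genes. The 6 of 37 called lower stand against 1.26% of all genes, and against 1.85% of genes with a mean over 1000 normalised reads. The other 29 members did not pass. Of the 6 called lower, Eno1 and Bnip3 share over 40% of their 36-base words with other genes, so their values are uncertain. Without the 5 members that share so much, an exclusion chosen after seeing the data, 4 of 32 were called lower, 3 of them glycolytic. In these bulk samples fewer cells of a type and less RNA per cell cannot be told apart.

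Among the 24 glycolytic members, 2 were higher, 4 lower and 18 not called in the authors' deposited table. Among the 13 hypoxia-inducible members 0 were higher, 2 lower and 11 not called there. Of all genes, 5.97% were called higher and 1.26% lower. The median log2 fold change in the authors' deposited table was -0.49 over the glycolytic members and -0.21 over the hypoxia-inducible members. Without the 5 members that share over 40% of their 36-base words with other genes (Gapdh, Pgk1, Pgam1, Eno1 and Bnip3), these medians in the authors' deposited table were -0.22 and -0.19. Over all genes it was -0.10 above a mean of 100 normalised reads and -0.14 above a mean of 1000. The 4 genes that control fructose bisphosphate all had a log2 fold change above 0 in that table. Leaving them out, an exclusion not planned beforehand, could not raise the glycolytic median, which was then -0.53. Log2 fold changes in the authors' deposited table were below 0 for 15 of the 24 glycolytic and 11 of the 13 hypoxia-inducible members, against 49.4% of all genes, 60.5% of those over 100 normalised reads and 68.4% of those over 1000. Whatever the test, 12 members were over 1.5-fold lower in the authors' deposited table, against 8.8% of genes, and 4 over 1.5-fold higher, against 24.5%. Over the 21 recovered glycolytic members the median in the authors' deposited table was -0.51. Between libraries A alone the median of these 21 was -0.58 and the hypoxia-inducible median -0.22. Between libraries B and C they were -0.48 and -0.20.

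**Figure D1:**
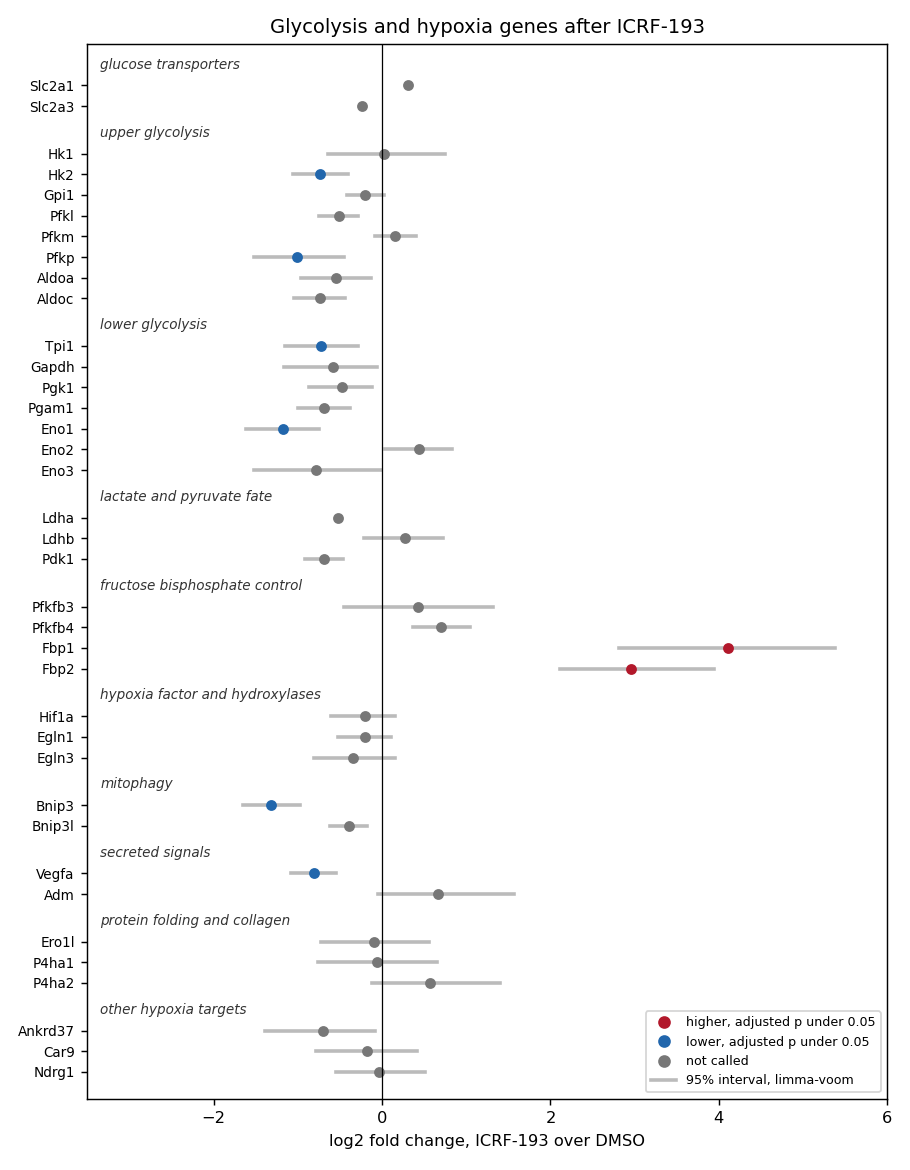
Log2 fold change of ICRF-193 over DMSO (horizontal axis) for the 37 genes, ordered by role: points are from the authors' deposited table and grey bars are 95% intervals of limma-voom on recovered reads, absent for the 3 genes with group means only. Fbp1 and Fbp2 lie far to the right of 0, and the 6 genes called lower lie left of 0 with intervals that do not reach it.

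A test on the recovered reads called the same 8 genes and 6 more. Limma-voom (adjusted p under 0.05 over 14965 genes, all 34 recovered members included) called 3 members higher, against 9.77% of genes, and 11 lower, against 5.95%. The 11 were the 6 lower genes named above with Aldoc, Pfkl, Pgam1, Pdk1 and Bnip3l. The lower count was 3 (Bnip3, Pdk1 and Vegfa) without DMSO library B (0.735% of genes), without ICRF-193 library B (0.762%) or without ICRF-193 library C (0.942%). It was 5 without DMSO library C (1.36%), where Hk2 and Eno1 also passed. Without DMSO library A it was 12 (9.28%), and without ICRF-193 library A it was 9 (3.93%). Of these 6 fits, 3 called Hk2 and Eno1, 2 called Pfkp, Pfkl, Aldoc and Pgam1, 1 called Tpi1 and, as higher, Pfkfb4, and 0 called Bnip3l. Fbp1 and Fbp2 were called higher in each of these fits. With a term for the difference of libraries A from B and C, which is a feature seen in the data, 9 members were higher, against 27.1% of genes, and 20 were lower, against 32.6%. Without both libraries A the counts were 8 higher, against 25.1%, and 18 lower, against 28.8%, so a call in either of these fits was common among all genes. The lowest DMSO library lay above the highest ICRF-193 library for 16 of the 34 members, against 18.8% of genes, and the reverse held for 6, against 18.7%.

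Glucose enters ES cells through the transporters encoded by Slc2a1 (GLUT1) and Slc2a3 (GLUT3). In the authors' deposited table the mean of Slc2a1 was 37977 normalised reads in DMSO and 47033 in ICRF-193 (log2 fold change 0.31, adjusted p = 0.609). That of Slc2a3 in the authors' deposited table was 59331 and 50104 (log2 fold change -0.24, adjusted p = 0.737). Both are among the most abundant members per kilobase of exon, and neither passed the test. The ratio of Slc2a3 to Slc2a1 was 1.56 in DMSO and 1.07 in ICRF-193 by the means in the authors' deposited table, with no value per library.

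Of the 8 genes of upper glycolysis, from hexokinase to aldolase, 2 fell and 6 were not called in the authors' deposited table. Of all genes, 1.26% were called lower there. Hk2, the inducible hexokinase that traps glucose in the cell, had 15999, 13314 and 11852 normalised reads in DMSO libraries A, B and C and 8848, 8312 and 7545 in ICRF-193. Every DMSO library lay above every ICRF-193 library. The authors' deposited table gave Hk2 a log2 fold change of -0.74 (adjusted p = 0.0290). Limma-voom gave -0.73 ± 0.13 (SE, adjusted p = 0.0175), with means of 13722 ± 2104 in DMSO and 8235 ± 655 in ICRF-193 (mean ± SD, n = 3 libraries each). Hk1, the widely expressed hexokinase, had 2801, 1722 and 1432 in DMSO and 2609.8, 1767 and 1691 in ICRF-193. Its groups overlapped, library A being highest in both, and its limma-voom log2 fold change was 0.05 ± 0.29 (SE, adjusted p = 0.928).

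Of the 3 phosphofructokinase genes, whose enzymes catalyse the committed step, 1 fell in the authors' deposited table, where 1.26% of all genes were called lower. Pfkp, the platelet type, had 7170.2, 4896 and 4332 normalised reads in DMSO libraries A, B and C and 3206, 2636 and 2329 in ICRF-193. The groups did not overlap although library A was highest in each. In the authors' deposited table the mean of Pfkp in ICRF-193 was 49.8% of that in DMSO (log2 fold change -1.01, adjusted p = 0.0248). Limma-voom gave -0.99 ± 0.22 (SE, adjusted p = 0.0303). Of the 36-base words of Pfkp transcripts, 15.8% also occur in Pitrm1, so reads there cannot be told apart. Pfkl, the liver type and the most abundant of the 3 per kilobase, had 13935, 15227 and 15156 in DMSO and 9332, 10828 and 10924 in ICRF-193. The groups did not overlap, the authors' deposited table did not call Pfkl (log2 fold change -0.51, adjusted p = 0.236) and limma-voom did (-0.51 ± 0.10 SE, adjusted p = 0.0190). Total read scaling ended this limma-voom call. Pfkm, the muscle type, had 2445, 2827 and 2844 in DMSO and 2978, 2895 and 3146 in ICRF-193, all 3 ICRF-193 libraries being above the DMSO libraries, with a limma-voom log2 fold change of 0.16 ± 0.10 (SE, adjusted p = 0.339). With the term for libraries A, Pfkm passed as higher in limma-voom (0.16 ± 0.06 SE, adjusted p = 0.0458). Without both libraries A, limma-voom did not call Pfkm (0.09, adjusted p = 0.29).

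The promoter of Pfkp is shown because it had 1 entry in the RefSeq promoter table (build GRCm38.p6) and the largest fall among glycolytic genes with a single entry. The 250 bases before its start lie at chr13:6648772-6649021 on the minus strand. Capitals mark ACGTG or GCGTG on either strand, the core of the HIF binding motif. In all, 3 such stretches were found.
Pfkp: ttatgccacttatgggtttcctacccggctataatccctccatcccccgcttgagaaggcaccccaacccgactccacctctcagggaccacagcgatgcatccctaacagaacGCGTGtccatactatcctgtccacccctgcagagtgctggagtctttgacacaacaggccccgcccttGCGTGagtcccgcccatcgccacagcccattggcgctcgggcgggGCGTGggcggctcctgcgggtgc

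Gpi1, which turns glucose phosphate into fructose phosphate, had 11819, 12868 and 13228 normalised reads in DMSO and 10203, 11357 and 11466 in ICRF-193, and was not called in the authors' deposited table (adjusted p = 0.833). Limma-voom called Gpi1 lower without both libraries A (-0.19, adjusted p = 0.0122). Aldolase splits fructose bisphosphate into triose phosphates. Its abundant isoform Aldoa had 38052, 50565 and 52017 in DMSO and 26137, 35052 and 35216 in ICRF-193. Library A was the lowest in both groups, the groups did not overlap, and neither the authors' deposited table (log2 fold change -0.54, adjusted p = 0.205) nor limma-voom (-0.55 ± 0.17 SE, adjusted p = 0.0794) called Aldoa. Aldoa was called lower by limma-voom without both libraries A (-0.55, adjusted p = 1.05e-05). The brain-type isoform Aldoc had 714, 743 and 704 in DMSO and 378, 469 and 452 in ICRF-193, with no overlap. It lay just outside the threshold in the authors' deposited table (log2 fold change -0.73, adjusted p = 0.0513) and inside it in limma-voom (-0.74 ± 0.13 SE, adjusted p = 0.0139). Pdk1, at 0.0570, was the next outside in the authors' deposited table, and Tpi1, at 0.0462, the last inside.

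Of the 7 genes of lower glycolysis, from triose phosphate isomerase to enolase, 2 fell and 5 were not called in the authors' deposited table. Of all genes, 1.26% were called lower there. A log2 fold change below 0 was seen for 6 of the 7. In that table it was seen for 60.5% of genes over 100 normalised reads and 68.4% of those over 1000. Tpi1, which interconverts the triose phosphates, had 9808, 13543 and 13787 normalised reads in DMSO libraries A, B and C and 6130.1, 8075 and 8207 in ICRF-193. The lowest DMSO library, A, was above the highest ICRF-193 library. The authors' deposited table gave Tpi1 a log2 fold change of -0.73 (adjusted p = 0.0462), and limma-voom gave -0.72 ± 0.18 (SE, adjusted p = 0.0431). The limma-voom call of Tpi1 was lost with total read scaling (-0.60, adjusted p = 0.101) or upper quartile scaling (-0.65, adjusted p = 0.0627). It was lost as well in 5 of the 6 fits that left out 1 library, with limma-voom adjusted p from 0.0839 (without ICRF-193 library A) to 0.152 (without DMSO library B), and held without DMSO library A (adjusted p = 0.0140). Eno3, the muscle enolase, had 956, 1702 and 1752 in DMSO and 584, 989 and 983 in ICRF-193. Its groups overlapped through DMSO library A, the lowest of its group, and it was not called in the authors' deposited table (log2 fold change -0.79, adjusted p = 0.257). With the term for libraries A its log2 fold change was -0.78 ± 0.06 (SE, limma-voom adjusted p = 3.52e-06).

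A group of 4 genes of lower glycolysis share much of their transcript sequence with other loci, which limits what their reads can show. Of the 36-base words in GENCODE M21 transcripts, 68.2% of those of Pgk1 and 61.5% of those of Gapdh also occur in another gene. The shares were 52.4% for Eno1, mostly with Eno1b, and 42.0% for Pgam1. Other members with shares over 10% carry the same limit in part. Outside lower glycolysis these shares were 32.6% for Gpi1, 29.6% for Ldhb, 27.0% for Bnip3l and 18.9% for Ldha. They were 16.5% for Ankrd37, 15.8% for Pfkp, 13.7% for Ndrg1 and 13.5% for Aldoa. Bnip3 is given below, and Tpi1 of lower glycolysis shared 13.1%. How the authors' counting treated reads that match several loci is not given in the sources used here. Per kilobase in DMSO, Gapdh had 105 normalised reads, Eno1 33.1, Pgam1 490 and Pgk1 702, against 4497 for Tpi1 of the same pathway. Of the other enolases, Eno2, which shares 0.947% of its words, had 81.6, and Eno3, which shares 0%, had 845. The values of Gapdh, Pgk1, Pgam1 and Eno1 are uncertain because of their shared words. The part of shared words in these levels was not tested.

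**Figure D2:**
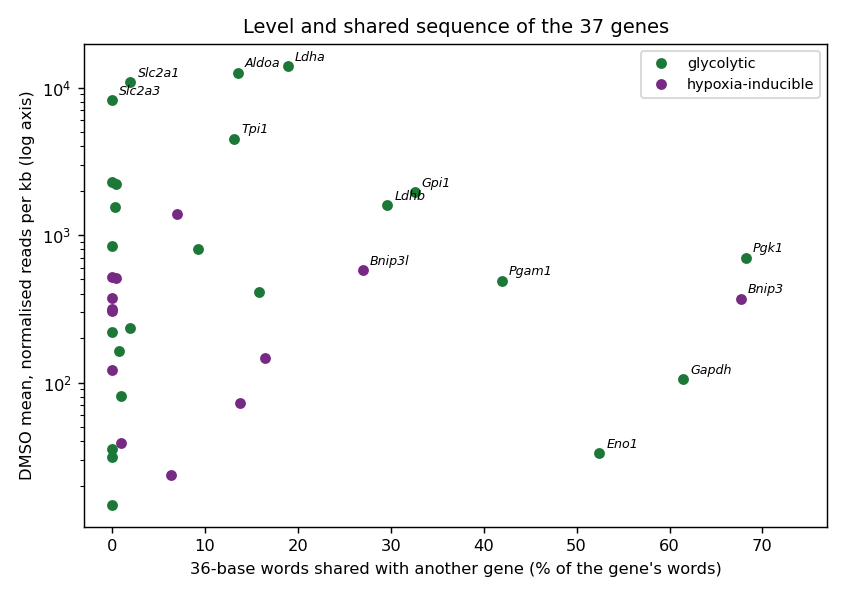
Mean level in DMSO in normalised reads per kilobase of exon (vertical, log axis) against the share of each gene's 36-base words that also occur in another gene (horizontal, %), for the 37 genes. Of the genes with shares over 40%, Gapdh and Eno1 lie low, and Pgk1, Pgam1 and Bnip3 lie above them. Aldoa, Ldha and Slc2a1, each with a share under 20%, are the highest.

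Within that limit, Eno1, the main enolase, had 177, 171 and 187 normalised reads in DMSO and 96.4, 69.5 and 70.7 in ICRF-193, with no overlap. The authors' deposited table gave Eno1 a log2 fold change of -1.18 (adjusted p = 0.00313), and limma-voom -1.18 ± 0.18 (SE, adjusted p = 0.00995). Gapdh, which oxidises glyceraldehyde phosphate, had 376, 494 and 436 in DMSO and 203, 332 and 336 in ICRF-193. Pgk1, which makes ATP, had 1471, 1646 and 1612 in DMSO and 907, 1324 and 1164 in ICRF-193. Pgam1, the phosphoglycerate mutase, had 938, 1078 and 899 in DMSO and 566, 574 and 671 in ICRF-193. None of these 3 had overlapping groups and none passed in the authors' deposited table, with adjusted p = 0.198, 0.308 and 0.0709. Limma-voom called Pgam1 (-0.69 ± 0.13 SE, adjusted p = 0.0190) but neither Gapdh (-0.61 ± 0.23 SE, adjusted p = 0.125) nor Pgk1 (-0.49 ± 0.16 SE, adjusted p = 0.0810). Without both libraries A it also called Gapdh (-0.48, adjusted p = 0.00482) and Pgk1 (-0.39, adjusted p = 0.00257) lower. Eno2, the neuronal enolase, shares only 0.947% of its words. It had 370.1, 434 and 348 in DMSO and 453, 614 and 493 in ICRF-193, higher in all 3 ICRF-193 libraries, and was not called in the authors' deposited table (log2 fold change 0.44, adjusted p = 0.413). Limma-voom without both libraries A called Eno2 higher (0.50, adjusted p = 0.0115).

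At the end of the pathway, Ldha turns pyruvate into lactate, Ldhb favours the reverse reaction, and Pdk1 limits the oxidation of pyruvate by inhibiting pyruvate dehydrogenase. None was called in the authors' deposited table. Ldha, the member with most reads per kilobase, had means of 46368 and 32250.2 normalised reads in the authors' deposited table (log2 fold change -0.52, adjusted p = 0.333). Pdk1 had 11094, 12777 and 12072 in DMSO libraries A, B and C and 6961, 7673 and 7584 in ICRF-193, with tight groups that did not overlap. Its adjusted p in the authors' deposited table was 0.0570, and limma-voom gave -0.69 ± 0.09 (SE, adjusted p = 0.00739). The limma-voom call of Pdk1 held in each of the 6 fits that left out 1 library. Ldhb had 2113, 2683 and 2712 in DMSO and 2265, 3469 and 3299 in ICRF-193, with overlap, library A being lowest in each group. Limma-voom called Ldhb higher without both libraries A (0.33, adjusted p = 0.00175), but not with them (0.25 ± 0.20 SE, adjusted p = 0.420).

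The 4 genes that control fructose bisphosphate were the only role in which every log2 fold change was above 0 in the authors' deposited table. Fructose bisphosphatase removes a phosphate from fructose bisphosphate and so opposes phosphofructokinase. Fbp1 is its liver and kidney form and Fbp2 its muscle form. Fbp1 had 15.1, 23.8 and 36.7 normalised reads in DMSO libraries A, B and C and 248, 431 and 628 in ICRF-193. Even the lowest ICRF-193 library was several times the highest DMSO library, and library A was lowest in both groups. The mean of Fbp1 was 17.3-fold higher in ICRF-193 in the authors' deposited table (log2 fold change 4.11, adjusted p = 1.76e-05). Limma-voom gave Fbp1 4.10 ± 0.53 (SE, adjusted p = 0.00673), with means of 25.2 ± 10.9 in DMSO and 436 ± 190.3 in ICRF-193 (mean ± SD, n = 3 libraries each).

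Fbp2 had 74.8, 38.7 and 23.8 normalised reads in DMSO libraries A, B and C and 351, 288 and 423 in ICRF-193. The groups did not overlap, and DMSO library A was the highest of its group. The mean of Fbp2 was 7.74-fold higher in ICRF-193 in the authors' deposited table (log2 fold change 2.95, adjusted p = 4.49e-15). Limma-voom gave 3.03 ± 0.38 (SE, adjusted p = 0.00612), with means of 45.8 ± 26.2 in DMSO and 354 ± 67.5 in ICRF-193 (mean ± SD, n = 3 libraries each). Between libraries A alone the log2 fold change of Fbp2 was 2.23, and between libraries B and C it was 3.51. For Fbp1 these values were 4.04 and 4.13. Despite the rise, both stayed far below Pfkl, at 256 (Fbp1) and 241 (Fbp2) against 1552 normalised reads per kilobase in ICRF-193.

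Fbp1 and Fbp2 are neighbours on mouse chromosome 13, with 0 genes starting between them in RefSeq GRCm38.p6. They share none of their 36-base words with each other or with another gene. RefSeq lists each of the symbols as an older name of the other, so the table's names may be exchanged relative to the promoters below. These promoters are shown because the neighbours moved together: the 250 bases before each start lie at chr13:62888283-62888532 (Fbp1) and chr13:62858401-62858650 (Fbp2), both on the minus strand. Capitals again mark ACGTG or GCGTG on either strand. That of Fbp1 held 0 such stretches, and that of Fbp2 held 1, inside the palindrome CACGTG, which is also the E-box of MYC and other factors.
Fbp1: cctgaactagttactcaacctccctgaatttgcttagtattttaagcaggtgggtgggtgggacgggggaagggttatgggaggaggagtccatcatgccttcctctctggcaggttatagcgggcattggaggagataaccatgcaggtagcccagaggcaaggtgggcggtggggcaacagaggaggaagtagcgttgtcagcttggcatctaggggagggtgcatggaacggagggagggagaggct
Fbp2: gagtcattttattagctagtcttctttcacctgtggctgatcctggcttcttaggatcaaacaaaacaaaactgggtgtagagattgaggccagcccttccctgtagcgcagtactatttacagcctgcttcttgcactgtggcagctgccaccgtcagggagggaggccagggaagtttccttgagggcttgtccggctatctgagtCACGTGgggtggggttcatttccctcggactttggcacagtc

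Pfkfb3 and Pfkfb4 encode enzymes that make and remove the fructose bisphosphate isomer that activates phosphofructokinase. Pfkfb4 had 190.2, 169 and 158 normalised reads in DMSO and 297, 262 and 283 in ICRF-193. The groups did not overlap. Pfkfb4 was not called in the authors' deposited table (log2 fold change 0.71, adjusted p = 0.117) and was called by limma-voom (0.70 ± 0.14 SE, adjusted p = 0.0225). Pfkfb3 had 1859, 936 and 924 in DMSO and 2369, 1488 and 1145 in ICRF-193. Library A was highest in each group, the groups overlapped, and neither test called Pfkfb3 (log2 fold change 0.43, adjusted p = 0.836 in the authors' deposited table). Without both libraries A, limma-voom called it higher (0.49, adjusted p = 0.00460).

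**Figure D3:**
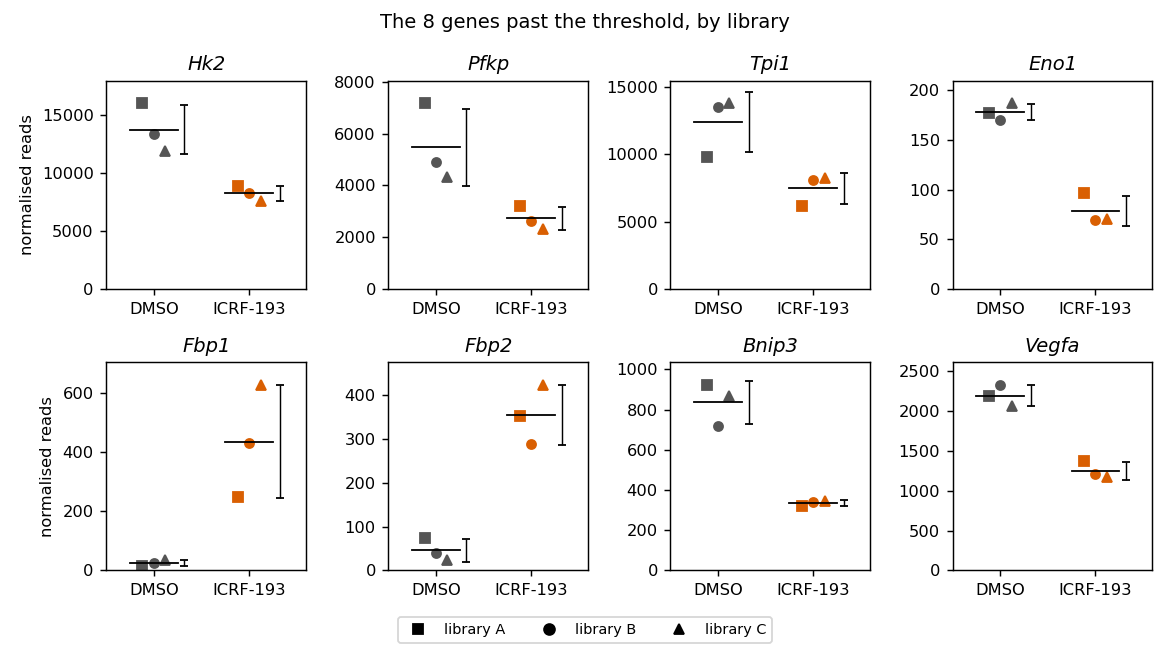
Normalised reads (vertical, linear axes from 0, one scale per panel) in the 3 DMSO and 3 ICRF-193 libraries for the 8 genes called in the authors' deposited table; horizontal lines are means, error bars are SD (n = 3), and symbols mark libraries A, B and C. In each panel the 2 groups are separated, and library A is highest in both groups for Hk2 and Pfkp and lowest in both for Tpi1 and Fbp1.

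Among the hypoxia-inducible genes, the factor and its hydroxylases were not called in the authors' deposited table. Hif1a had 9259.7, 7745 and 7661 normalised reads in DMSO libraries A, B and C and 8729, 6318 and 6308 in ICRF-193, with overlap. Egln1, which marks HIF1A for destruction, had 1513, 1222 and 1330.3 in DMSO and 1306, 1153 and 1062 in ICRF-193. Egln3, a hydroxylase gene that is itself a HIF1 target, had 1019, 620.0 and 809 in DMSO and 706, 597 and 619 in ICRF-193. All 3 had overlapping groups with library A highest in each. Their log2 fold changes in the authors' deposited table ran from -0.35 (Egln3) to -0.21 (Egln1), with adjusted p of 0.513 to 0.803. With the term for libraries A, limma-voom called all 3 lower: Hif1a (-0.22 ± 0.05 SE, adjusted p = 0.00478), Egln1 (-0.21 ± 0.07 SE, adjusted p = 0.0191) and Egln3 (-0.34 ± 0.11 SE, adjusted p = 0.0190). Without both libraries A it called Hif1a (-0.29, adjusted p = 0.00177) but neither Egln1 (-0.20, adjusted p = 0.0633) nor Egln3 (-0.22, adjusted p = 0.165).

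Bnip3 and Bnip3l encode outer membrane receptors that target mitochondria for removal. Bnip3 had 923, 718 and 867 normalised reads in DMSO libraries A, B and C and 320.2, 341 and 346 in ICRF-193, and the groups were far apart. It had the largest fall of the 37 genes in the authors' deposited table (log2 fold change -1.32, adjusted p = 1.57e-05), where its ICRF-193 mean was 40.1% of the DMSO mean. Limma-voom gave -1.31 ± 0.14 (SE, adjusted p = 0.00390), with means of 836 ± 106 in DMSO and 336 ± 13.6 in ICRF-193 (mean ± SD, n = 3 libraries each). Its words are shared to 67.7% with other genes, so this value too is uncertain. Bnip3l had 2332, 2201 and 2135 in DMSO and 1653, 1748 and 1678 in ICRF-193, with no overlap. Bnip3l was not called in the authors' deposited table (log2 fold change -0.39, adjusted p = 0.439). It passed in limma-voom (-0.39 ± 0.09 SE, adjusted p = 0.0342) but not with total read or upper quartile scaling. Bnip3l shares 27.0% of its 36-base words with Bnip3l-ps.

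The Bnip3 promoter is shown as that of the member with the largest fall and the most marked stretches among those printed. Its 250 bases before the start lie at chr7:138909507-138909756 on the minus strand (RefSeq, GRCm38.p6). Capitals mark the same motif, found in 4 stretches, one of them CACGTG.
Bnip3: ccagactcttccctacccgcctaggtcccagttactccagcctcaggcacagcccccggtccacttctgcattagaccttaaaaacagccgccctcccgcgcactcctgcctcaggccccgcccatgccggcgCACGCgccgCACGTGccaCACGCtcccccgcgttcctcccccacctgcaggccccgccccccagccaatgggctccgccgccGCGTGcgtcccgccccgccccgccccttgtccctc

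ACGTG or GCGTG occurred on either strand in 38 of 47 promoters of the 34 matched members, 80.9%, against 38.6% of all 32851 promoters of 250 bases in the table. By kind it was 27 of 35 glycolytic and 11 of 12 hypoxia-inducible promoters. Member promoters had a median GC content of 59.2% against 52.4% for all, and the part of GC content in the share was not tested. The motif occurred in 7 of 9 promoters of the members that fell and in 1 of 2 of those that rose. A match describes these letters and shows no binding. Slc2a3, Bnip3l and Ndrg1 had no entry.

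Both genes for secreted signals had groups that did not overlap, in opposite directions. Vegfa, the growth factor for blood vessels, had 2191, 2326 and 2055 normalised reads in DMSO libraries A, B and C and 1376, 1205 and 1168 in ICRF-193. In the authors' deposited table Vegfa fell (log2 fold change -0.81, adjusted p = 0.0187). Limma-voom gave -0.81 ± 0.11 (SE, adjusted p = 0.00754), with means of 2191 ± 135 in DMSO and 1249.7 ± 111 in ICRF-193 (mean ± SD, n = 3 libraries each), and called Vegfa lower in each of the 6 fits that left out 1 library. Adm, the vasodilator adrenomedullin, had 70.8, 33.7 and 84.3 in DMSO and 109, 94.4 and 96.5 in ICRF-193. Its lowest value was DMSO library B, and Adm was not called in the authors' deposited table (log2 fold change 0.67, adjusted p = 0.261). Adm was called higher by limma-voom without both libraries A (0.86, adjusted p = 0.0485).

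The genes of protein folding and collagen hydroxylation were not called in the authors' deposited table. Ero1l, which reoxidises the disulphide-forming enzyme of the endoplasmic reticulum, had 2285, 1316 and 1426 normalised reads in DMSO and 2029, 1302 and 1387 in ICRF-193. P4ha1, a catalytic subunit of collagen prolyl hydroxylase, had 2979, 1546 and 1866 in DMSO and 2704, 1687 and 1718 in ICRF-193. Its paralogue P4ha2 had 1173, 519 and 589 in DMSO and 1344, 1058 and 983 in ICRF-193. All 3 were highest in library A of each group and their groups overlapped. P4ha2 was at 0.20 on the log2 scale between libraries A and at 0.88 between libraries B and C. With the term for libraries A, limma-voom gave P4ha2 0.59 ± 0.13 (SE, adjusted p = 0.00216).

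The remaining hypoxia targets were not called in that table either. Ankrd37, an ankyrin repeat protein, had 189, 221 and 262 normalised reads in DMSO and 89.3, 159 and 166 in ICRF-193, without overlap (log2 fold change -0.70, adjusted p = 0.135 in the authors' deposited table). Limma-voom called it lower without both libraries A (-0.56, adjusted p = 0.00842) and not with them (-0.73 ± 0.27 SE, adjusted p = 0.119). It shares 16.5% of its 36-base words with other genes, mostly Lrp2bp. Ndrg1, a stress-responsive gene, had 629.6, 383 and 427 in DMSO and 541, 437 and 426 in ICRF-193. Car9, a carbonic anhydrase of the cell surface often used as a hypoxia marker, had 62.9, 57.5 and 42.1 in DMSO and 40.2, 59.1 and 44.9 in ICRF-193. The groups of Ndrg1 and Car9 overlapped, and Car9 was the least abundant hypoxia-inducible member per kilobase.

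Ratios of related genes within a library, here not corrected for length, do not depend on how libraries are scaled. Of 12 pairs, 10 could be tested by an exact two-sided permutation test, in which 3 against 3 libraries cannot give p below 0.10. The groups did not overlap in 5 pairs, each with exact permutation p = 0.10 (0.20 adjusted over 10 pairs), so none could pass. The ratio of Eno2 to Eno1 in normalised reads was 2.09, 2.54 and 1.86 in DMSO libraries A, B and C and 4.68, 8.78 and 6.93 in ICRF-193, with the limit on Eno1 given above. That of Hk2 to Hk1 was 5.71, 7.73 and 8.27 in DMSO and 3.39, 4.70 and 4.46 in ICRF-193. Per kilobase of exon, Hk2 was the more abundant in both groups, at 2299 against 233 normalised reads in DMSO and 1379.7 against 237 in ICRF-193.

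Bnip3 shares 67.7% and Bnip3l 27.0% of their 36-base words with other genes, so their ratio is uncertain. The ratio of Bnip3 to Bnip3l was 0.396, 0.326 and 0.406 in DMSO and 0.194, 0.195 and 0.206 in ICRF-193. For Pfkm to Pfkl it was 0.176, 0.186 and 0.188 in DMSO and 0.319, 0.267 and 0.288 in ICRF-193, and for P4ha2 to P4ha1 0.394, 0.336 and 0.316 in DMSO and 0.497, 0.627 and 0.572 in ICRF-193. The differences of the mean log2 ratio, ICRF-193 minus DMSO, were 1.62 for Eno2 to Eno1, -0.79 for Hk2 to Hk1 and -0.92 for Bnip3 to Bnip3l. They were 0.67 for Pfkm to Pfkl and 0.70 for P4ha2 to P4ha1. The groups overlapped for the other 5 pairs, among them Pfkp to Pfkl and Aldoc to Aldoa. By the means in the authors' deposited table, Ldhb to Ldha was 0.0540 in DMSO and 0.0934 in ICRF-193.

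**Figure D4:**
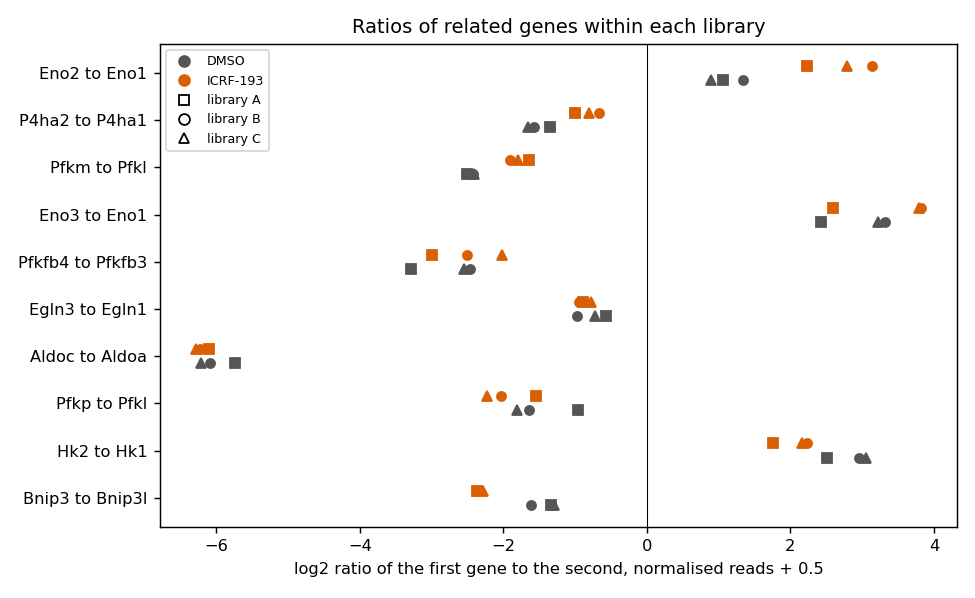
Log2 ratio of 2 related genes within each library (horizontal axis, normalised reads plus 0.5) for the 10 pairs with recovered reads; grey symbols are DMSO, orange symbols ICRF-193, and shapes mark libraries A, B and C. The groups are apart for Eno2 to Eno1, P4ha2 to P4ha1, Pfkm to Pfkl, Hk2 to Hk1 and Bnip3 to Bnip3l.

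The level in library A was set against that in B and C of the same group. In DMSO, library A was above the mean of B and C for 12 of the 13 hypoxia-inducible members, with a median log2 ratio of 0.27, and for 6 of the 21 recovered glycolytic members, with a median of -0.12. In ICRF-193 the counts were 9 of 13 (median 0.21) and 6 of 21 (median -0.16). Over all 14965 genes tested in limma-voom these medians were -0.0039 in DMSO and -0.050 in ICRF-193, between those of the 2 kinds of member. The difference between the 2 kinds was not tested. P4ha1, P4ha2, Ero1l, Pfkfb3 and Hk1 were well above B and C in both groups, and Eno3 and Fbp1 well below. The marker sums given above moved with the same libraries, and their part in these differences was not tested.

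**Figure D5:**
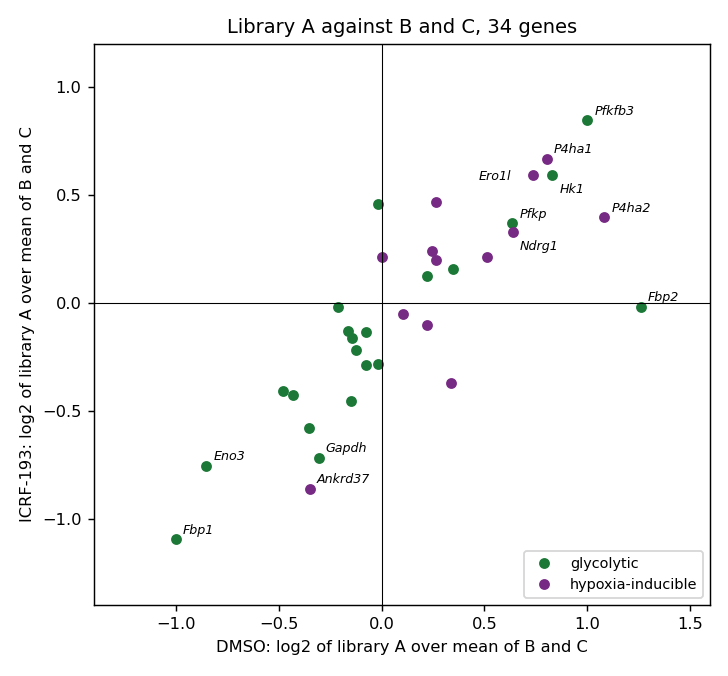
Log2 ratio of library A to the mean of B and C in ICRF-193 (vertical) against the same in DMSO (horizontal) for the 34 genes with recovered reads, glycolytic in green and hypoxia-inducible in purple. Hypoxia-inducible genes lie mostly right of 0 and glycolytic genes mostly left of it, and Fbp2 is above 0 in DMSO only.

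Other genes of these pathways were taken from lists drawn up by name. Of 54 further glycolysis, gluconeogenesis and pyruvate genes with reads, the authors' deposited table called 1 higher, 2 lower and 51 neither. Over all genes it called 5.97% higher and 1.26% lower. Pck2, the mitochondrial enzyme that makes phosphoenolpyruvate, had 2339, 3633 and 3458 normalised reads in DMSO and 586, 673 and 683 in ICRF-193. It fell in the authors' deposited table (log2 fold change -2.28, adjusted p = 8.91e-10), as did Ldhd, which oxidises the D form of lactate (-1.19, adjusted p = 0.0287). Pgam2, the muscle phosphoglycerate mutase, rose in the authors' deposited table (1.02, adjusted p = 0.0197). Pyruvate kinase, listed as Pkm2, had means of 85797 and 61775 normalised reads and was not called in the authors' deposited table (adjusted p = 0.306).

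Of 52 further hypoxia genes, the authors' deposited table called 5 higher, 2 lower and 45 neither, where 5.97% and 1.26% of all genes were called. Ddit4, an inhibitor of mTORC1 signalling that several stresses induce, had 2875, 3879 and 3777 normalised reads in DMSO and 5728, 8976 and 9667 in ICRF-193. The log2 fold changes in the authors' deposited table were 1.40 for Car12, a carbonic anhydrase, 1.25 for Edn1, a vasoconstrictor, and 1.21 for Ddit4. They were 1.09 for Plod2, a collagen lysyl hydroxylase, and 0.96 for Cox4i2, a cytochrome oxidase subunit. The adjusted p of these 5 in the authors' deposited table ran from 1.47e-05 (Car12) to 0.0496 (Cox4i2). Stc2, a secreted glycoprotein, was at -1.77 and Kdm4b, a histone demethylase, at -0.73 in the authors' deposited table. The median log2 fold change in that table was -0.17 over the further glycolysis genes and 0.10 over the further hypoxia genes.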

How the data were processed

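Per the submitters' processing notes, the authors used TopHat, HTSeq and DESeq with the mouse build mm9; versions, annotation, strand and the treatment of multiply mapping reads are not given in the sources used here. The values deposited per group are a signal: reads over library size factors, averaged. The deposited foldChange is the ratio of those means, and its deposited log2 is unshrunken. P-values deposited by the authors come from DESeq and are adjusted over 18759 genes; they are the main test, since the file has no count per replicate.

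Each deposited mean has 15 significant digits, so whole reads of 3 libraries per group were worked back by a lattice search. Of 18759 genes, 18197 had a single solution, 500 were taken at a posterior of at least 0.99, and 62 were left out, Ldha, Slc2a1 and Slc2a3 among them. The search was tested on simulated data. The 14965 genes that reached 10 reads in 3 or more libraries were fitted with limma-voom, in limma 3.58.1 under R 4.3.3. Alternatives changed the scaling, the filter, the terms and the libraries. Levels per kilobase use exon lengths of GENCODE M21, which is not the annotation of the file. The labels give no replicate numbers.

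The members, gene lists and tests were chosen with earlier results of these data known. Genes were named by role, with those called given in full.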

Additional observations from a re-analysis of the deposited data

How the results depend on the processing

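Counts of members called in the authors' deposited table (2 higher, 6 lower) were 3 and 11 in limma-voom, 9 and 20 with a term for libraries A, 8 and 18 without both libraries A, and again 11 lower with no filter on low counts. Leaving out 1 library gave 2 to 4 higher and 3 to 12 lower. Counts over all genes (1120 higher, 237 lower in the authors' deposited table) were 891 lower in limma-voom, 4056 and 4879 with the term for libraries A, and 3759 and 4308 without both libraries A. They were 1830 and 417 with total read scaling, 601 lower with upper quartile scaling, 759 lower with no filter, and 476 to 1721 higher and 110 to 1389 lower with 1 library left out. Total read scaling moved the median log2 fold change of all genes from -0.04 to 0.08. Over the 21 recovered members the glycolytic median was -0.39 with it and -0.62 to -0.37 with 1 library left out. In the authors' deposited table it was -0.22 without the members sharing over 40% of 36-base words (an alternative chosen after seeing the data). The hypoxia-inducible median was -0.29 to -0.12 with 1 library left out. The cause of these shifts was not tested.

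Changes of sign were seen for 5 genes, none called in any fit. With 1 library left out, Hk1 ranged from -0.15 to 0.34, Ero1l from -0.28 to 0.17, P4ha1 from -0.28 to 0.23 and Ndrg1 from -0.17 to 0.21. With total read scaling Ero1l was at 0.036, P4ha1 at 0.067 and Ndrg1 at 0.10. With upper quartile scaling P4ha1 was at 0.016 and Ndrg1 at 0.048. Without both libraries A, P4ha1 was at 0.0056, Ndrg1 at 0.097 and Car9 at 0.063. No paired analysis was possible because the columns carry no replicate numbers. Depth limits Fbp1, Fbp2, Car9 and Adm most, with DMSO means under 100 normalised reads.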

Other observations

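Pyruvate is oxidised in mitochondria by the pyruvate dehydrogenase complex, whose genes were singled out after their values were seen. Pdha1, a catalytic subunit, had 10831, 9999.8 and 9269 normalised reads in DMSO libraries A, B and C and 7233, 6801 and 6528 in ICRF-193. The groups did not overlap. Pdha1 was not called in the authors' deposited table (log2 fold change -0.55, adjusted p = 0.170) and had an adjusted p of 0.0151 in limma-voom. The other subunits Pdhb, Dlat, Dld and Pdhx were at -0.38, -0.33, -0.28 and -0.25 on the log2 scale in the authors' deposited table, and none was called there.

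Slc16a3, which exports lactate, had 3788, 6401 and 9114 normalised reads in DMSO and 2257, 4503 and 4583 in ICRF-193, with overlap. Library A was the lowest in each group. Its log2 fold change in the authors' deposited table was -0.77 (adjusted p = 0.523). With the term for libraries A, limma-voom gave -0.75 (adjusted p = 1.47e-04). Epas1, which encodes the HIF factor HIF2A, had 1315, 1023 and 991 in DMSO and 1893, 1268 and 1309 in ICRF-193, with overlap, and was not called in the authors' deposited table (log2 fold change 0.43, adjusted p = 0.449). Both genes were also chosen after their values were seen.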
